A study of Mus musculus with 38 samples.

Results

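Of 110589 H3K4me1 domains called in cultured mouse epidermal stem cells (EpdSCs) without doxycycline (DOX), 13186 had no domain in the list of cells expressing wild-type (WT) SOX9 while a domain was still called at the same place with ΔHMG-SOX9 and with ΔTA-SOX9. These 13186 domains, 11.9% of all domains called without DOX, are described here as the WT-only losses. They were chosen by a single measurement, the presence or absence of an overlap of at least 1 bp in 3 lists of called intervals. "Loss" here means that no domain was called, and the number itself is a description of these lists. The WT-only losses were narrower than the domains that stayed, lay farther from start sites, held the AP1 motif more often and lay over H3K4me1 of uninduced skin less often. In distance and in skin they were near other domains that WT SOX9 lacked.

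SOX9 is a transcription factor that binds DNA through its HMG domain and is known as a master regulator of hair follicle stem cells. It can bind sites in closed chromatin, which is why it is called a pioneer factor. H3K4me1 marks primed and active enhancers and is laid down at enhancers mainly by MLL3 and MLL4, whereas H3K27ac marks the active ones. AP1 is a dimer of FOS and JUN proteins that binds many enhancers of the epidermis, and its consensus site is TGAGTCA, which reads TGACTCA on the opposite strand.

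The culture cells were keratinocytes from the back skin of newborn male mice labelled K14rtTA; TRE-myc-Sox9varients, in which rtTA is driven by the *Krt14* promoter, the promoter of a basal keratin. MYC-tagged SOX9 under a tetracycline response element was delivered by lentivirus, so all 4 culture conditions carried rtTA and a transgene. ΔHMG-SOX9 lacks the DNA-binding HMG domain and ΔTA-SOX9 lacks the transactivation domain. The 4 culture lists analysed were 1 from the WT line before DOX and 1 from each of the WT, ΔHMG and ΔTA lines under DOX. Lists of the ΔHMG and ΔTA lines without DOX were not analysed here, so both mutants were set against the WT line without DOX, and a difference between lines cannot be told apart from an effect of the protein. Skin lists came from sorted cells of the back skin of male K14rtTA; TRE-myc-Sox9 mice given DOX from postnatal day 21 (P21), at D0 (no induction) and after 1, 2 and 6 weeks (W1, W2 and W6). For the list after 12 weeks (W12), back skin of newborn pups was grafted onto female immunocompromised Nude mice. DOX began there once the grafts had healed. The sort for the skin lists kept cells high for CD49f and Ly6A and negative for CD34, CD31, CD45, CD117 and CD140a.

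MINT-ChIP, a chromatin immunoprecipitation on barcoded and pooled chromatin, gave 2 culture libraries, 1 from a high and 1 from a low digest with micrococcal nuclease, and each condition had 1 barcode in each. Every list pools its libraries, so no spread between replicates could be had and no test between conditions was made. Shares carry exact 95% Clopper-Pearson intervals, and differences between shares carry 95% Newcombe intervals. Both cover counting error only, and neighbouring domains are not independent. The read depth of each list is not given in the lists. The DOX lists held 116042 domains with WT, 116326 with ΔHMG and 123338 with ΔTA, over 133 Mb, 120 Mb and 133 Mb of the genome, against 119.7 Mb without DOX. The WT list was thus no shorter than the no-DOX list. As a check of the cell type, each of 7 keratinocyte markers (*Krt5*, *Krt14*, *Krt15*, *Trp63*, *Itga6*, *Itgb4* and *Col17a1*) held a no-DOX domain, over a median 20.97% of the gene. Of 12 markers of fibroblasts, immune, endothelial and pigment cells, 10 held one, over a median 6.14%. The ranges overlapped, at 11.2% to 39.7% for keratinocyte markers and up to 16.7% (*Cd3e*) for the others. *Cd207* and *Tyr* held none, and *Pdgfra* and *Mitf* reached folds of 7.01 and 7.33, above the 6.51 of *Itga6*, the highest of the keratinocyte markers. The part of other cell types in the results was not tested.

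The central 300 bases of 4 WT-only losses with an AP1 match are given on the plus strand of GRCm38, because the AP1 motif was the sequence feature in which these domains differed most from kept domains. The first 3 are among the 12 WT-only losses of highest fold, of which 5 hold a match. The last is the one of highest fold with a match among those that had skin H3K4me1 at D0 and none at W2, W6 and W12, and it was chosen after its values were seen. In each, the AP1 match is in capitals and all other bases are in lower case. The windows are chr5:65973097-65973396, chr1:159404731-159405030, chr2:38438831-38439130 and chr1:65900083-65900382, in the order of the lines. The matches begin at base 208, 74, 264 and 164 of the windows, counted from 1 at the 5′ end.
Chrna9 intron: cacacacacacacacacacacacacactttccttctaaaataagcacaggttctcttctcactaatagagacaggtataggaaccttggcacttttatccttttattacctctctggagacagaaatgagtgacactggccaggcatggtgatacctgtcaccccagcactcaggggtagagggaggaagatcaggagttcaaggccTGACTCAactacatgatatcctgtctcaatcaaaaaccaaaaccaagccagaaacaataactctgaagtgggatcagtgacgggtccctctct
Gm37757 neighbour: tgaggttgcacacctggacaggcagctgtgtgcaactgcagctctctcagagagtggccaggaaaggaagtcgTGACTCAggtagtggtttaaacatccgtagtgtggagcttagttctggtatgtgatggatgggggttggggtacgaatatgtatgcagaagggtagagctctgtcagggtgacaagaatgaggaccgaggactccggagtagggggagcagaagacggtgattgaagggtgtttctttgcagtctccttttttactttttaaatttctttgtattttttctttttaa
Gm13589 intron: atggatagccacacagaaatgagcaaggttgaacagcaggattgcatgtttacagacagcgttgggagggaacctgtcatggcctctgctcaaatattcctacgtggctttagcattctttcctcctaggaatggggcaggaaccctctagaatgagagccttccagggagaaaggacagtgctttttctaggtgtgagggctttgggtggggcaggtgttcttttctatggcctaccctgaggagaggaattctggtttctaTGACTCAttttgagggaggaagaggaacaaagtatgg
Crygf neighbour: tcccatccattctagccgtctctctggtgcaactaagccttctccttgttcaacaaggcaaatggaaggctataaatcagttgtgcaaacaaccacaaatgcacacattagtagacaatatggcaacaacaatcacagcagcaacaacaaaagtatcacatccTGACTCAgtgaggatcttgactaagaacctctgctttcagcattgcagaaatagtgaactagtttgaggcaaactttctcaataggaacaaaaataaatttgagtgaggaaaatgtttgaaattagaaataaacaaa

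The fate of the no-DOX domains divided into 8 classes. A domain was called in all 3 DOX lists at 71006 places, 64.2% of the total, and these kept domains are the main comparison below. Losses seen with 1 mutant alone were fewer than the WT-only losses: 3089 domains (2.79%) were absent only with ΔHMG and 5310 (4.80%) only with ΔTA. Counting every class, 25.1% of no-DOX domains were absent with WT, 15.6% with ΔHMG and 17.5% with ΔTA. WT-only losses made up 13186 of the 27731 domains absent with WT. A further 3952 were absent with WT and ΔHMG, 3813 with WT and ΔTA and 6780 with all 3. The plot of class sizes shows these numbers.

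**Figure D1:**
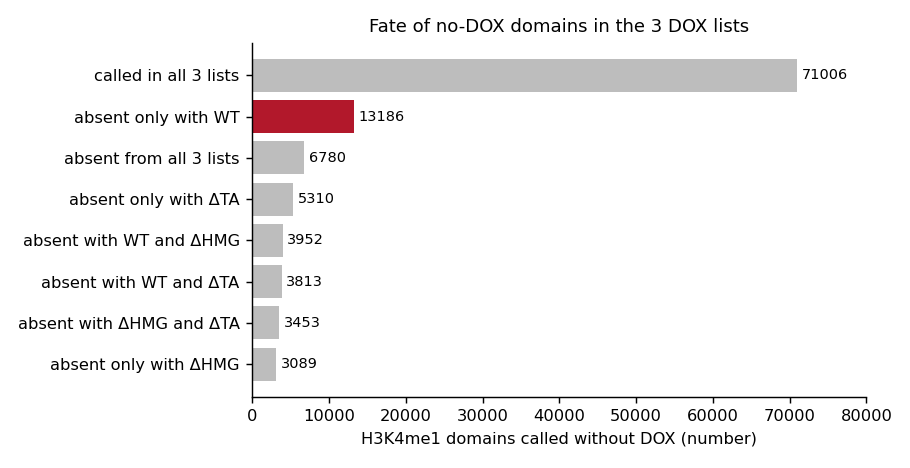
Number of no-DOX H3K4me1 domains in each of the 8 classes of presence in the 3 DOX lists, 1 bar per class. The WT-only losses (red, 13186) were the largest class after the domains called in all 3 lists (71006).

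The fold enrichment of a domain, as deposited, is its signal over the local background. Without DOX, WT-only losses had a median fold of 3.49 (interquartile range 3.02 to 4.13), against 3.78 (3.16 to 4.59) for kept domains. They were narrow: the median width was 584 bp (371 to 931), against 1151 bp (704 to 1755) for kept domains. The median −log10 of the deposited q-value, higher for a surer call, was 3.18 for WT-only losses and 5.53 for kept domains. Domains absent only with ΔHMG had a median fold of 3.24 and a width of 524 bp, and those absent only with ΔTA had 3.32 and 573 bp. The 3 classes of loss with a single protein were thus near each other in width, and the WT-only losses had the highest median fold of these 3. Where all 3 lists lacked the domain, the median fold was 3.05 and the width 347 bp.

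**Figure D2:**
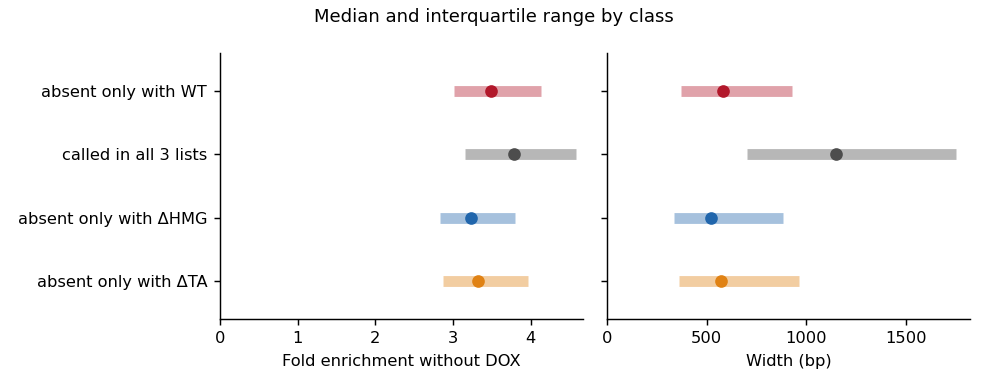
Fold enrichment without DOX (left) and width in bp (right) of 4 classes of domain, with points for medians and bars for interquartile ranges. WT-only losses (584 bp) were narrower than kept domains (1151 bp), while their median folds, 3.49 and 3.78, lay close together.

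In the lists that kept them, the WT-only losses had a median fold of 3.70 with ΔHMG (3.16 to 4.41) and 3.70 with ΔTA (3.14 to 4.44). The fold was above the no-DOX value at 60.2% of them with ΔHMG and at 58.5% with ΔTA, with median ratios of 1.05 in both. Since membership required a call in both lists, these values are a description only. In kept domains the median fold went from 3.78 without DOX to 3.61 with WT, 3.83 with ΔHMG and 3.71 with ΔTA.

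The nearest WT domain lay a median 5314 bp away from a WT-only loss (interquartile range 2367 to 12175 bp), and 611 of them (4.63%) had one within 1000 bp. At the limit set by the rule, the members closest to a WT domain were 784 bp on chromosome 6 (120122013 to 120122796, fold 3.28) with a WT domain 1 bp beyond its edge and 418 bp on chromosome 17 (27237918 to 27238335, fold 4.43) with one 2 bp beyond. Just outside the rule were a domain on chromosome 13 (32496762 to 32497030, fold 2.86) that shared 3 bp with a WT domain and one on chromosome 19 (27427522 to 27428869, fold 3.37) that shared 4 bp. Such borderline cases were rare. Only 22 WT-only losses lay under 50 bp from a WT domain and only 71 kept domains shared under 50 bp with one.

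WT-only losses were spread over the genome. Their share of the no-DOX domains ranged from 9.89% on chromosome 19 to 13.8% on chromosome 14, and was 11.9% on the X chromosome. The Y chromosome had 10 no-DOX domains, of which 1 was a WT-only loss. Along the chromosomes, 9264 of the 11001 uninterrupted runs of WT-only losses were single domains, 1398 were pairs and 24 held 5 or more. The longest run held 7 domains over 103 kb of chromosome 9 (15922020 to 16025472) inside *Fat3*, which encodes an atypical cadherin. A run of 6 spanned 45.4 kb near *Iqca* on chromosome 1. An immediately neighbouring domain was a WT-only loss for 29.7% of WT-only losses and for 20.9% of other domains, a description with no test because neighbours were read from the same lists.

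WT-only losses were mostly far from promoters. Distance was taken from the centre of a domain to the nearest of 77200 start sites in GENCODE M21, and distal meant over 2500 bp. Of the WT-only losses 87.7% were distal (95% interval 87.1 to 88.2), against 74.5% (74.2 to 74.8) of kept domains, a difference of 13.2 percentage points (12.5 to 13.8). The median distance was 14568 bp, against 9437 bp. Loss with a mutant alone looked unlike this: 71.6% of domains absent only with ΔHMG and 78.7% of those absent only with ΔTA were distal. The other domains that WT SOX9 lacked came closer, at 84.4% where all 3 lists lacked them and 86.5% where WT and ΔHMG did, the latter with a difference of 1.17 points (-0.0131 to 2.40) and a median distance of 15641 bp. The difference from kept domains stood among domains of like strength and width as well. Within the interquartile ranges of fold and width of the WT-only losses, a restriction chosen after seeing the data, 87.3% of 3190 WT-only losses, 73.8% of 7944 kept domains and 87.3% of 1028 domains absent from all 3 lists were distal.

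By their centres, 6834 WT-only losses (51.8%) lay in introns, 5626 (42.7%) between genes and 726 (5.51%) in exons. Kept domains lay in introns in 57.6%, between genes in 34.0% and in exons in 8.34%. The base composition of the central 300 bases differed little, with a G and C content of 47.2% ± 6.30 (SD over domains, n = 13186) in WT-only losses and 48.0% ± 7.50 (n = 71006) in kept domains. Bases that the reference marks as repeats made up 20.7% and 18.4% of these windows.

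AP1 motifs were the clearest feature of sequence. In the central 300 bases, on either strand, 2512 WT-only losses (19.1%, 18.4 to 19.7) held TGAGTCA, against 13.2% (13.0 to 13.5) of kept domains, a difference of 5.80 percentage points (5.09 to 6.53). The share was 11.0% (9.96 to 12.2) in domains absent only with ΔHMG and 7.97% (7.25 to 8.73) in those absent only with ΔTA. For comparison, 5.20% of 32851 RefSeq promoters of 300 bases (GRCm38) held it. Across the classes that WT SOX9 lacked, the share was 19.1% where both mutants kept the domain, 15.4% where ΔTA alone kept it, 10.02% where ΔHMG alone kept it and 9.53% where neither did. Where WT alone kept the domain it was 7.67%. Every class absent from the ΔTA list thus lay below every class called in it, and the rule for WT-only losses required a call in the ΔTA list. Among domains with fold and width in the interquartile ranges above, the AP1 share was 21.1% (19.7 to 22.5) in WT-only losses, 14.6% (13.8 to 15.4) in kept domains and 10.1% (8.34 to 12.1) where all 3 lists lacked the domain.

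The AP1 matches gathered at the centre of the WT-only losses. Within 100 bp on either side of the centre there were 73.5 and 74.6 matches per 1000 domains per bin of 100 bp, against 15.7 and 16.2 in the outermost bins, which end 1000 bp away. Kept domains had 50.7 and 50.2 at the centre and 20.7 and 22.1 in the outermost bins. Domains absent only with ΔTA had 32.2 and 25.4 at the centre. Counted over the whole domain, WT-only losses held 0.549 matches per kb and kept domains 0.385. Most held no copy: 8813 WT-only losses had no match over their whole length, 3637 held 1 and 639 held 2.

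**Figure D3:**
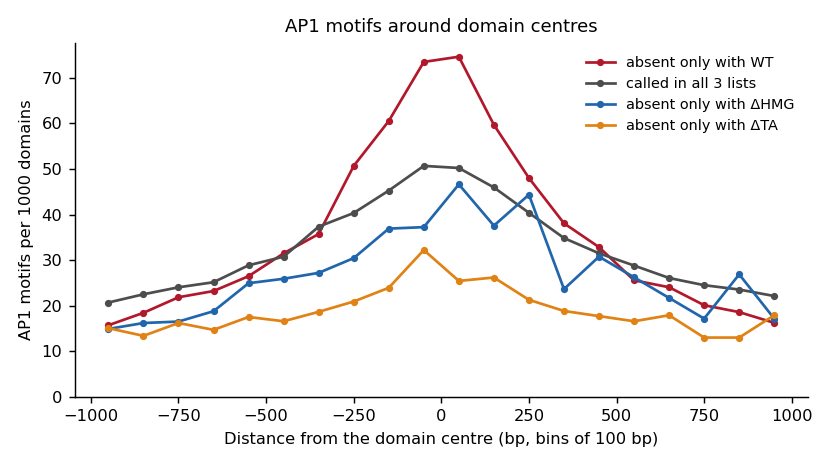
AP1 matches per 1000 domains in bins of 100 bp against the distance in bp from the domain centre, 1 line per class. The WT-only losses (red) reach 73.5 and 74.6 in the 2 central bins, above the kept domains at 50.7 and 50.2.

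WT-only losses of higher fold held AP1 more often. The share rose from 16.4% (15.2 to 17.8) in the lowest of 4 equal groups by fold to 18.05%, 19.5% and 22.2% (20.8 to 23.6) in the highest. Over the same 4 ranges of fold, kept domains went from 10.4% to 11.3%, 12.8% and 16.0%, below the WT-only losses in each range. Domains absent only with ΔTA stayed between 7.18% and 8.71%. Those absent only with ΔHMG had 10.2%, 9.92%, 10.5% and 15.7% (12.5 to 19.3), the last close to kept domains.

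The SOX motif went the other way. ACAATG, the core that SOX proteins recognise, was in the central 300 bases of 13.3% (12.7 to 13.8) of WT-only losses, against 14.2% (13.99 to 14.5) of kept domains, a difference of -0.993 percentage points (-1.62 to -0.351). It was at 15.5% in domains absent only with ΔHMG, at 16.0% in those absent only with ΔTA and at 12.6% in promoters. The longer form ACAATGG, which lies inside the same matches, was at 3.31% and 3.96% in WT-only losses and kept domains. With fold and width restricted, ACAATG was at 12.7% and 15.2%, a difference of -2.50 points (-3.88 to -1.08).

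The other motifs differed by fewer percentage points between WT-only losses and kept domains. AGATAA, bound by GATA factors such as GATA3 of the epidermis, was at 15.2% and 14.6%, a difference of 0.617 points (-0.0412 to 1.29), and at 11.2% in promoters. TGTGGTT, bound by RUNX factors, was at 7.42% and 7.22% (promoters 5.27%), GGGTGTGG of KLF factors at 3.94% and 4.24% (promoters 3.56%) and CATTCCA of TEAD factors at 6.81% and 6.63% (promoters 4.29%). TTGCNNAA of C/EBP factors was at 12.6% and 12.1% (promoters 10.8%). The p63 pair, 2 copies of CATG with 6 bases between them, was in 244 WT-only losses (1.85%, 1.63 to 2.095) and in 1.53% (1.44 to 1.63) of kept domains, against 0.712% of promoters. Its difference was 0.318 points (0.0826 to 0.578), and 0.483 points (-0.0393 to 1.08) with fold and width restricted. CCGGAAGT of ETS factors, AACCGGTT of GRHL factors and the patterns of NFI and CTCF were each in under 1% of both classes, and in 3.89%, 0.146%, 0.0365% and 0.648% of promoters. A match is a string of letters and does not show that a factor was bound.

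In skin, WT-only losses lay over H3K4me1 much less often than kept domains. At D0, 5634 of them (42.7%, 41.9 to 43.6) overlapped a skin domain, against 74.9% (74.6 to 75.2) of kept domains, 65.2% of domains absent only with ΔHMG and 64.6% of those absent only with ΔTA. The later shares of WT-only losses were lowest at W1 (31.2%) and W2 (31.8%), with 37.5% at W6 and 39.1% at W12, and 5877 (44.6%) overlapped no skin domain at any time. Kept domains without any skin domain made up 14.6%. With fold and width restricted the D0 shares were 39.8% and 66.2%. This was not particular to WT-only losses among the domains that WT SOX9 lacked, since 43.9% of those absent from all 3 lists overlapped skin H3K4me1 at D0, a difference of -1.14 percentage points (-2.59 to 0.313).

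Where skin H3K4me1 was present at D0, it was more often gone after SOX9 induction at the WT-only losses. Of these 5634, 30.6% (29.4 to 31.9) had no skin domain at W1. The share peaked at W2 with 37.5% (36.2 to 38.8). It was 26.4% (25.3 to 27.6) at W6, close to the 26.9% (25.7 to 28.0) of W12. Over all no-DOX domains with skin H3K4me1 at D0 the shares were 15.0%, 18.5%, 12.2% and 14.8% in the same order, and for kept domains they were 11.4%, 14.1%, 8.44% and 10.6%. At W2 the share was 19.0% (17.3 to 20.8) for domains absent only with ΔHMG and 22.6% (21.2 to 24.0) for those absent only with ΔTA. With fold and width restricted, 39.7% (37.0 to 42.4) of WT-only losses and 18.8% (17.7 to 19.8) of kept domains were without a skin domain at W2.

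The other domains that WT SOX9 lacked came close to the WT-only losses at W2. The shares were 34.9% (33.2 to 36.7) where all 3 culture lists lacked the domain, 33.6% where WT and ΔHMG did and 38.0% where WT and ΔTA did. With fold and width restricted, domains absent from all 3 lists differed from WT-only losses by -1.37 points (-6.83 to 3.98) at W2. At W12 the domains absent from all 3 lists stood above the WT-only losses, at 32.7% (31.0 to 34.4). The skin lists differ in length, from 69439 domains at W1 to 87287 at D0, with 73415 (W2), 74316 (W12) and 79556 (W6) between them, and the part of list length in these shares was not tested. The plot of skin shares shows 4 classes at each time.

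**Figure D4:**
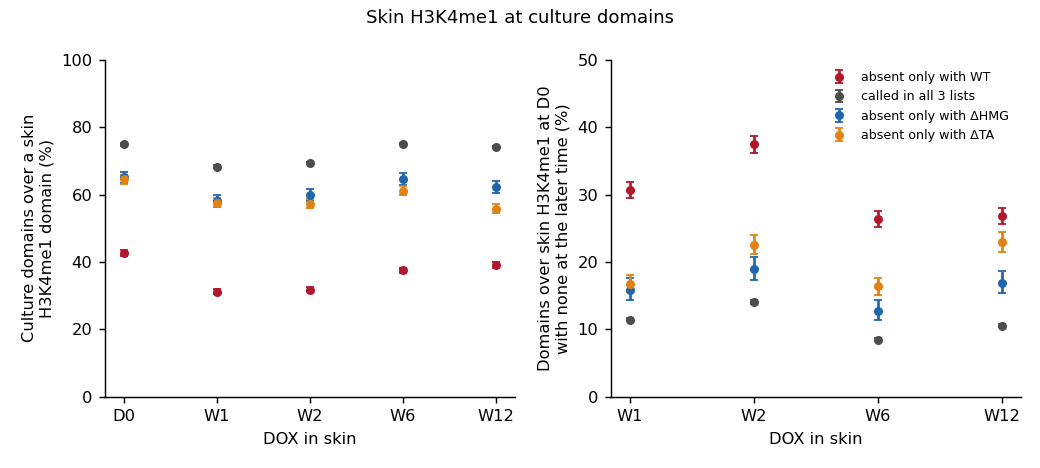
Left, percentage of culture domains that overlap a skin H3K4me1 domain at D0 (no DOX) and 1, 2, 6 and 12 weeks of DOX, for 4 classes. Right, percentage with no skin domain at the later time among those with one at D0. Bars are exact 95% intervals for counting error. Among these 4 classes, WT-only losses (red) are lowest on the left (42.7% at D0) and highest on the right (37.5% at W2).

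Calls at WT-only losses came and went. Of the 5634 with skin H3K4me1 at D0, 2672 (47.4%) had it at all 5 times, against 77.2% of kept domains, and 615 (10.9%) had it at none of the later times, against 2.74%. A pattern of absence at W2 with calls at D0, W1, W6 and W12 was seen at 445 WT-only losses. Lasting absence, at W2, W6 and W12, was seen at 796 (14.1%, 13.2 to 15.1), against 3.86% (3.70 to 4.03) of kept domains. Other domains that WT SOX9 lacked showed it about as often or more, at 13.5% (11.9 to 15.2) where ΔHMG lacked them too, 17.0% (15.3 to 18.8) where ΔTA did and 15.6% (14.3 to 16.9) where all 3 did. Where all 3 lacked them, 47.8% had skin H3K4me1 at all 5 times and 11.5% at none of the later times. Of the 7552 WT-only losses without skin H3K4me1 at D0, 2.66%, 8.83%, 10.6% and 13.6% had it at the 4 later times in order, each below the 8.01%, 19.97%, 25.3% and 28.0% of kept domains.

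Skin H3K27ac was rare at WT-only losses. A peak was called over 655 of them at D0 (4.97%, 4.60 to 5.35), against 20.5% (20.2 to 20.8) of kept domains, 14.05% of domains absent only with ΔHMG and 9.96% of those absent only with ΔTA. After induction it was lowest at W2 (3.65%), with 4.30% at W1, 3.85% at W6 and 4.21% at W12. Kept domains lay between 17.6% (W12) and 22.5% (W6). Domains absent from all 3 lists had 4.62% at D0.

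AP1 matches and skin calls were related among the WT-only losses. Of the 2512 with a match 34.0% (32.1 to 35.9) overlapped skin H3K4me1 at D0, against 44.8% (43.8 to 45.7) of the 10674 without. Among those with skin H3K4me1 at D0, absence at W2 was seen at 42.7% (39.4 to 46.1) with a match and at 36.5% (35.2 to 37.9) without, whereas at W12 it was seen at 23.7% (20.8 to 26.7) and 27.4% (26.2 to 28.7). Kept domains showed the same order, with absence at W2 at 19.6% with a match and 13.4% without, and at W12 at 8.61% and 10.8%. Of the 796 WT-only losses with lasting absence in skin 14.6% (12.2 to 17.2) held an AP1 match, of the 2672 called at all times 14.1% (12.8 to 15.4), and of the 5877 never called in skin 21.4% (20.3 to 22.5).

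The 12 WT-only losses with the highest fold were narrow sites of 307 to 963 bp, 10 of them in introns and 2 between genes. Their folds without DOX lay between 8.43 and 11.6. All 12 were lower with ΔHMG (5.20 to 10.3) and 11 of 12 were lower with ΔTA (5.22 to 8.76), which is a description of sites picked for a high value without DOX. The highest lay in an intron of *Chrna9*, a nicotinic acetylcholine receptor subunit (chromosome 5, 65973055 to 65973438), with a fold of 11.6 without DOX, 8.39 with ΔHMG and 5.75 with ΔTA. The nearest WT domain was 18416 bp away, and its AP1 match is in the first sequence above, of which 58.0% is marked as repeat.

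Other sites of highest fold lay in introns of *Rabgap1l* (fold 9.56), *Slc14a2* (9.31), *Xiap* (8.95), *Gm13589* (8.75), *Mov10l1* (8.60), *Vps54* (8.53), *BC117090* (8.46) and *Kcnq3* (8.43), and between genes near *Gm37757* (9.24) and *Bex1* (8.84). *Rabgap1l* encodes a regulator of RAB GTPases, *Slc14a2* a urea transporter, *Xiap* an inhibitor of caspases and *Kcnq3* a potassium channel. The site near *Gm37757* (chromosome 1, 159404400 to 159405362) had a fold of 9.01 with ΔHMG and 6.12 with ΔTA, and that in *Gm13589* (chromosome 2, 38438815 to 38439147) had 6.08 and 8.76. Of the 12, 5 held an AP1 match in the central 300 bases, 4 overlapped skin H3K4me1 at D0 and 7 overlapped it at none of the 5 times.

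Of the 796 WT-only losses with lasting absence in skin, the 8 with the highest fold ranged from 6.91 to 7.88 without DOX. The highest lay 26503 bp from *Ndufa12*, a subunit of respiratory complex I (chromosome 10, 94225183 to 94225830), with folds of 7.88 without DOX, 6.30 with ΔHMG and 7.72 with ΔTA, and had skin H3K4me1 at D0 alone. The next 2 lay in introns of *Nt5c3*, a pyrimidine nucleotidase (chromosome 6, 56897110 to 56897514, fold 7.50), and *Nxpe5* (chromosome 5, 138240739 to 138241390, fold 7.43). Others lay in introns of *a*, the agouti gene of coat colour (chromosome 2, 154914193 to 154914560, fold 7.25), of *Rab3gap1* (chromosome 1, 127899149 to 127899470, fold 7.15) and of *Pdpn*, which encodes podoplanin (chromosome 4, 143271803 to 143272082, fold 7.04). The last 2 lay in an intron of *Gm40603* (fold 6.95) and 19247 bp from *Gm39388* (fold 6.91). At the *Pdpn* site the fold was 5.67 with ΔHMG and 4.94 with ΔTA. None of the 8 held an AP1 match in the central 300 bases and 2 held one elsewhere in the domain. The one of highest fold with a central match among the 796 lay 26287 bp from *Crygf*, a lens crystallin gene (chromosome 1, 65900018 to 65900447), with folds of 6.61, 3.85 and 7.64, and had skin H3K4me1 at D0 and W1.

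Each gene was taken with its flanks of 10 kb. Of 17937 protein-coding genes with a no-DOX domain there, 6378 (35.6%) had at least 1 WT-only loss and 173 had 5 or more. Within these gene regions 10.6% of no-DOX domains were WT-only losses. The 10 genes with the most were led by the very long models *Gm20388* (4435 kb, 43 of 478 domains) and *Fgfr2* (2961 kb, 25 of 238), whose shares of 8.996% and 10.5% were near that background. *Fgfr2* encodes a receptor of fibroblast growth factors. *Gm37240* (14 of 129, 10.9%) was near it too.

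Other long genes stood above it. *Klf12*, which encodes a repressor of the KLF family, had WT-only losses at 14 of 34 domains (41.2%). *Tenm4*, a teneurin of the cell surface, had 18 of 69 (26.1%), *Macrod2* 21 of 95 (22.1%), *Sorcs2* 14 of 52 (26.9%), *Camta1* 14 of 64 (21.9%), *Mast4* 13 of 48 (27.1%) and *Cacna2d3*, a calcium channel subunit, 11 of 40 (27.5%). Of the 2227 genes with 10 or more no-DOX domains, 11 had WT-only losses at 50% or more. *Fat3* (7 of 10) and *Dner*, a ligand of Notch (6 of 10), had the highest shares. These genes with high shares were chosen after their values were seen.

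Genes of epidermal identity held few WT-only losses, as did most of the gene lists examined. Over the loci of 22 epidermal transcription factors, 6 of 165 domains (3.64%, 1.35 to 7.75) were WT-only losses, and over 16 genes of basal keratins and adhesion 13 of 225 (5.78%, 3.11 to 9.68). Both intervals end below the 10.6% at all protein-coding genes. A share under 10.6% was not particular to these lists. Chromatin regulators that work with SOX9 stood at 4.90% and markers of other skin cells at 7.25%, though their intervals hold 10.6%. Only the stress keratins and alarmins stood above it, at 13.3% (2 of 15, 1.66 to 40.5), an interval that holds 10.6% too. The share at the epidermal factors moved with the flank, to 1.90% (0.232 to 6.71) without flanks and 7.32% (4.88 to 10.5) with flanks of 50 kb, where all protein-coding genes stood at 10.4% and 11.1%. For the adhesion list these values were 5.92% (2.87 to 10.6) and 6.13% (3.93 to 9.06). *Trp63*, *Gata3*, *Krt5*, *Ctnnb1*, *Vim* and *Sox9*, loci that the study names, held none, and *Runx1* held 3, so that these 7 loci had 3 of 89 (3.37%, 0.701 to 9.54). With flanks of 50 kb they had 6.43% (2.98 to 11.9), an interval that holds the 11.1% at all genes. The intervals are not adjusted for the 12 lists examined.

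Among the epidermal factors *Grhl3*, a regulator of barrier formation, held 2 of 8 and *Ovol1*, *Prdm1* and *Tfap2a* held 1 each. In the list of adhesion genes *Lamb3*, a chain of laminin-332, held 4 of 17, and the integrins *Itga6* and *Itgb1* held 2 of 22 and 2 of 10. The *Lamb3* sites had folds of 2.90, 3.13, 2.84 and 2.81 without DOX, 5.14, 3.45, 4.20 and 4.92 with ΔHMG, and 4.82, 3.26, 2.46 and 3.64 with ΔTA. All 4 were higher with ΔHMG than without DOX, as were 60.2% of all WT-only losses. Since membership required a call with both mutants, these values are a description only. The fourth *Lamb3* site lay within 10 kb of the gene in an exon of its neighbour *Camk1g*. Among 19 genes of epidermal differentiation 7 of 113 domains (6.19%, 2.53 to 12.3) were WT-only losses, 2 of them at *Pkp1*, a desmosome plakophilin. The 6 stress keratins and alarmins had 2 of 15, both within 10 kb of *Krt16* and 1 of them in *Krt17*.

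In the AP1 family, 3 of 44 domains (6.82%, 1.43 to 18.7) were WT-only losses, 2 of 8 at *Atf3* and 1 of 8 at *Fosl2*. The share was 15.0% (3.21 to 37.9) without flanks and 5.92% (2.74 to 10.9) with flanks of 50 kb, so these few domains set no direction against the background. Both *Atf3* sites lay in introns, with folds of 2.71 and 3.13 without DOX, 2.39 and 3.02 with ΔHMG and 2.62 and 3.13 with ΔTA. *Fos*, *Fosb*, *Fosl1*, *Jun*, *Junb*, *Jund*, *Batf* and *Batf3* held none.

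Signalling genes lay closer to the background. The 13 TGF-beta genes had 21 of 204 (10.3%, 6.49 to 15.3). *Ltbp1*, which tethers latent TGF-beta to the matrix, had 8 of 50 and *Tgfbr2*, the type II receptor, 4 of 13. *Smad3*, a signal transducer, had 3 of 24 and the ligand *Tgfb2* 2 of 13. The 18 Notch genes had 16 of 223 (7.17%, 4.16 to 11.4), with 3 of 20 at *Rbpj*, the DNA-binding partner of Notch, 3 of 52 at *Maml2*, 3 of 57 at *Maml3*, both coactivators, and 2 of 19 at the receptor *Notch2*. In the EGF receptor list the share was 8 of 108 (7.41%, 3.25 to 14.1), and 5 of these 8 were among the 19 domains of *Lrig1*, a negative regulator of EGF receptors, with 2 of 11 at *Erbb2*.

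Genes of the hair follicle and hedgehog list had 21 of 241 (8.71%, 5.47 to 13.0). *Nfib* held 4 of 37, *Nfatc1*, a factor of hair follicle stem cells, 3 of 18, *Runx1* 3 of 32, *Lhx2* and *Lef1* 2 of 7 and 2 of 9, and *Tcf7l1* 2 of 33. At *Lhx2*, a hair follicle stem cell factor, 1 site lay at the start of the gene (chromosome 2, 38339037 to 38339952), with folds of 3.88 without DOX, 3.62 with ΔHMG and 4.02 with ΔTA, and skin H3K4me1 at all 5 times. The 3 *Runx1* sites had folds of 2.65, 2.02 and 3.75 without DOX. Genes of chromatin regulators that work with SOX9 had 5 of 102 (4.90%, 1.61 to 11.1), with 2 each at *Kmt2a* and *Arid1b*. Markers of other skin cells had 5 of 69 (7.25%, 2.39 to 16.1), 2 of them at *Ptprc*, the leukocyte antigen CD45, which had only 2 domains.

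**Figure D5:**
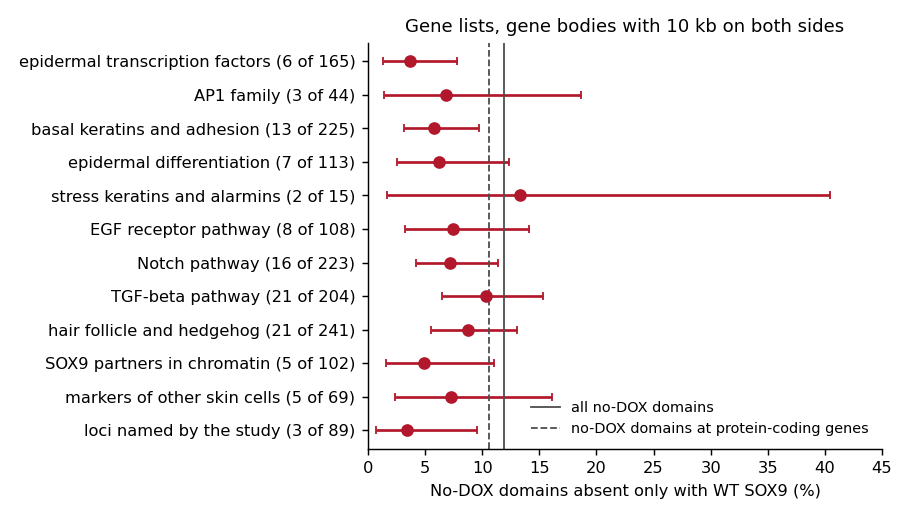
Percentage of no-DOX domains that are WT-only losses over the loci of 12 gene lists, with exact 95% intervals and the number of WT-only losses of all no-DOX domains in brackets. The solid line marks all no-DOX domains (11.9%) and the dashed line those at protein-coding genes (10.6%). Epidermal transcription factors stand at 3.64% and TGF-beta genes at 10.3%.

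In all, 60 of the 159 genes on these lists had a WT-only loss and 27 had 2 or more. Over all protein-coding genes with a no-DOX domain, 35.6% had a WT-only loss. These 27 genes held 75 WT-only losses, of which 47 overlapped skin H3K4me1 at D0, 27 overlapped it at all 5 times and 13 at none. Over all WT-only losses these shares were 42.7%, 20.3% and 44.6%. An AP1 match was in the central 300 bases of 11 of the 75, against 19.1% of all WT-only losses.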

How the data were processed

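H3K4me1 and H3K27ac were profiled by MINT-ChIP with paired reads. Per the labels and the study's methods, the authors split reads by barcode, trimmed them with Skewer, aligned them to mm10 with Bowtie2 (2.2.9), removed duplicates with Picard, merged replicates with SAMtools (1.9) and called H3K27ac peaks with MACS2 (2.1.1) and H3K4me1 domains with epic2. The submitters' processing notes also name SICER (0.0.36). The culture H3K4me1 lists have the broadPeak layout of MACS2, and their caller settings are not given in the sources used here. The deposited culture and H3K27ac lists hold a score, a fold enrichment, and −log10 of p and q. The deposited skin H3K4me1 lists hold a p-value per domain, of which only positions were used here.

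From 14 lists, overlaps of at least 1 bp were counted with Python (3.11.15), numpy (2.4.6), pandas (2.3.3) and scipy (1.17.1), and figures were drawn with matplotlib (3.10.9). Genes came from GENCODE M21 basic and sequence from GRCm38.p6 (RefSeq). The overlap and motif steps were tested on simulated data. The 14 barcode files were not used. Members and gene lists were chosen with earlier results of these data known. Named were the 12 members of highest fold, the 10 protein-coding genes with the most members, each listed gene with 2 or more members, the 7 loci the study names, and the 8 members of highest fold with skin H3K4me1 at D0 and none at W2, W6 and W12. Genes with 1 member or a high share were named outside this rule, after their values were seen. Sequences were to be taken from those 8 and then those 12 where they held AP1, none from chromosome 18. 1 of the 12 members with its sequence, and 1 listed gene, are not reported here.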

Additional observations from a re-analysis of the deposited data

How the results depend on the processing

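The differences from kept domains in AP1, distal share and absence at W2 kept their sign under every alternative. With fold and width restricted, the small GATA, C/EBP and GRHL motif differences from kept domains did change sign. They went to -0.684 (-2.10 to 0.781), -0.275 (-1.60 to 1.11) and 0.0244 (-0.130 to 0.256) percentage points. Of the shares, medians and differences recomputed under alternatives, 72 lay within the 95% interval of the reported value and 30 outside it. The number of WT-only losses was 10769 with a q-value of at most 0.01 and 12575 to 13519 with another overlap, with joining, without chromosomes X and Y or with no WT domain within 1000 bp. Restricting the no-DOX list to domains above its median score of 43 left 3659 WT-only losses with a median fold of 4.63 and width of 555 bp, of which 89.0% were distal, 21.4% held AP1, 44.5% overlapped skin H3K4me1 at D0 and 39.3% of those lacked it at W2. Differences from kept domains were then 7.38 percentage points for AP1, 25.6 for absence at W2 and 13.9 for distal domains. Restricting fold and width to the interquartile ranges of the WT-only losses, chosen after seeing the data, left 3190 with a width of 595 bp, AP1 in 21.1%, skin H3K4me1 at D0 in 39.8%, H3K27ac in 4.20% and absence at W2 in 39.7%, 20.9 points above kept domains. With an overlap of 50% of the shorter interval the width was 612 bp, 86.6% were distal, and the differences were 11.9 points for distal domains and 21.1 for absence at W2. With a q-value of at most 0.01 the median fold was 3.69, the width 595 bp and the D0 share 43.7%, and with no WT domain within 1000 bp the median fold was 3.51. AP1 was in 10.2% of central 150 bases and 31.7% of central 600, with differences of 3.25 and 8.02 points. A distal limit of 1000 bp gave 94.5% and a difference of 8.39 points, and 10000 bp gave 61.1%. Gene list shares lay within the wide intervals of the reported ones for flanks of 0 and 50 kb, but moved over 1.5 times for the epidermal factors, the AP1 family and the loci the study names, as given with them, and for markers of other skin cells without flanks (interval 0.488 to 13.7). Against all protein-coding genes at the same flank, the AP1 family went from below to above without flanks (15.0% against 10.4%). The stress keratins and alarmins went from above (13.3% against 10.6%) to below with flanks of 50 kb (8.89% against 11.1%).

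No paired analysis was possible because each list pools its libraries, and for the same reason leaving out a library was not possible. A domain just under the caller's threshold counts as absent, so depth and threshold of each list bear on every class, and their part was not tested. The depth of the lists is unknown.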
